A study of Mus musculus with 16 samples.

Results

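In fetal mouse lung, 55 transcripts were detected in strain C57BL/6J (B6) at a mean over 8 times that of strain A/J, where some had no read and others counts in every library. They were chosen on CPM, the count of a gene divided by the sum of all gene counts of its library, times 1e6. A gene was taken when its mean was at least 1 CPM over the 8 B6 libraries and its mean over the 8 A/J libraries was under 1/8 of that. Symbols beginning with H2-, Gbp, Hba or Hbb were left out, which removed 6 H2- genes and 1 Hba gene from the 62 that passed both thresholds. The 55 were 0.379% of the 14500 genes at 1 CPM or more in B6, out of 57180 genes in the files. Because the strain difference chose them, it is given below as a description without a test, and only the effect of the drug was tested. The choice averaged over both treatments and did not compare them, but treated libraries took part in it.

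The study measured poly(A)-selected RNA of whole lungs from male fetuses at E14.5, with 4 libraries for each of 4 groups. Dams of either strain were given oral BMS493, which acts on every retinoic acid receptor as an inverse agonist, in daily doses of 3.75 µg per g over E9.5 to E14.5, or corn oil as the control. The labels name no engineered allele in any group, so the strains differ by their whole inbred background. Which fetuses shared a litter is not stated, so the p-values below measure only the spread between these libraries, which may in part be technical.

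Inbred mouse strains differ at many loci by deletions, duplicated genes, inserted elements and regulatory changes, and a gene can be transcribed in the tissue of 1 strain and not of another. C57BL/6J is the strain from which the mouse reference genome was built. Reads of both strains were aligned to GRCm39, so an absent A/J transcript and an A/J transcript whose reads did not align to the B6 sequence cannot be told apart in these counts. In whole-lung RNA, fewer cells of a type and less RNA per cell cannot be told apart either. Lung at this age is a branching epithelium of distal tip cells and the first airway secretory and ciliated cells, surrounded by mesenchyme and vessels.

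Sequencing depth was 15.2e6 to 24.1e6 gene counts per library. In B6 3.16% ± 0.156 (SD, n = 8) of reads mapped to several places, and in A/J 3.90% ± 0.134 (SD, n = 8). Markers of lung epithelium (5 of 5), mesenchyme (5 of 5) and endothelium (3 of 3) were at 1 CPM or more in B6, while no marker of intestine or thymus was, and the 5 liver markers summed to at most 12.4 CPM in any library. Of 3 heart markers 2 were at 1 CPM or more in B6, and their sum ran from 4.03 to 25.9 CPM in B6 libraries and from 1.20 to 21.998 CPM in A/J libraries. Xist reached at most 10 counts in a library and Ddx3y was at 76.5 CPM or more in all 16, as the male label says. On principal components of log2(CPM + 1), the strains lay apart on the first, with 59.6% of the variance. On the second, with 7.84%, replicate 3 of the B6 BMS493 group (27.1) lay far from the others, whose highest was 6.54 for replicate 2 of that group. Cyp26b1, a retinoic acid hydroxylase and known target of the receptors, ran from 13.2 to 24.6 CPM in B6 controls and from 1.10 to 2.43 CPM with BMS493, so the treatment label was visible in the RNA.

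By type, 31 of the 55 were protein-coding in GENCODE M21, which is 56.4% of them against 90.3% of the genes at 1 CPM in B6. Another 6 were long intergenic RNAs, 3 antisense transcripts, 3 processed transcripts, 3 processed pseudogenes and 1 an unprocessed pseudogene. There was 1 immunoglobulin constant gene, Gm46339 had the class TEC of models that await experimental evidence, and 6 had an identifier without a match. Predicted genes with a Gm number made up 27.3% of the 55 and 5.48% of the genes at 1 CPM. Chromosome 17 held 7 of them (12.7%, against 4.77% of the genes at 1 CPM) and chromosome 7 held 5 (9.09%, against 7.41%).

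The median of the 55 was 2.57 CPM in B6 and 0.113 CPM in A/J, and 9 reached 10 CPM in B6. The A/J mean was 5.69% of the B6 mean at the median, against 100.4% over all genes at 1 CPM in B6. For 15 of the 55 it was under 1%, for 11 it lay between 1% and 5%, and for 29 it was 5% or more. Every B6 library was above every A/J library for 54 of the 55. The same held for 5.84% of the genes at 1 CPM, and since the choice used this contrast the count carries no evidence. The exception was Cyp2f2, whose lowest B6 library (0.249 CPM) was below its highest A/J library (0.303 CPM). Summed over the 55, B6 libraries held 778 to 920.0 CPM and A/J libraries 37.0 to 59.5 CPM. Rpl26 made up most of the B6 sum, and without it the sums were 326 to 453 CPM and 19.3 to 27.1 CPM.

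**Figure D1:**
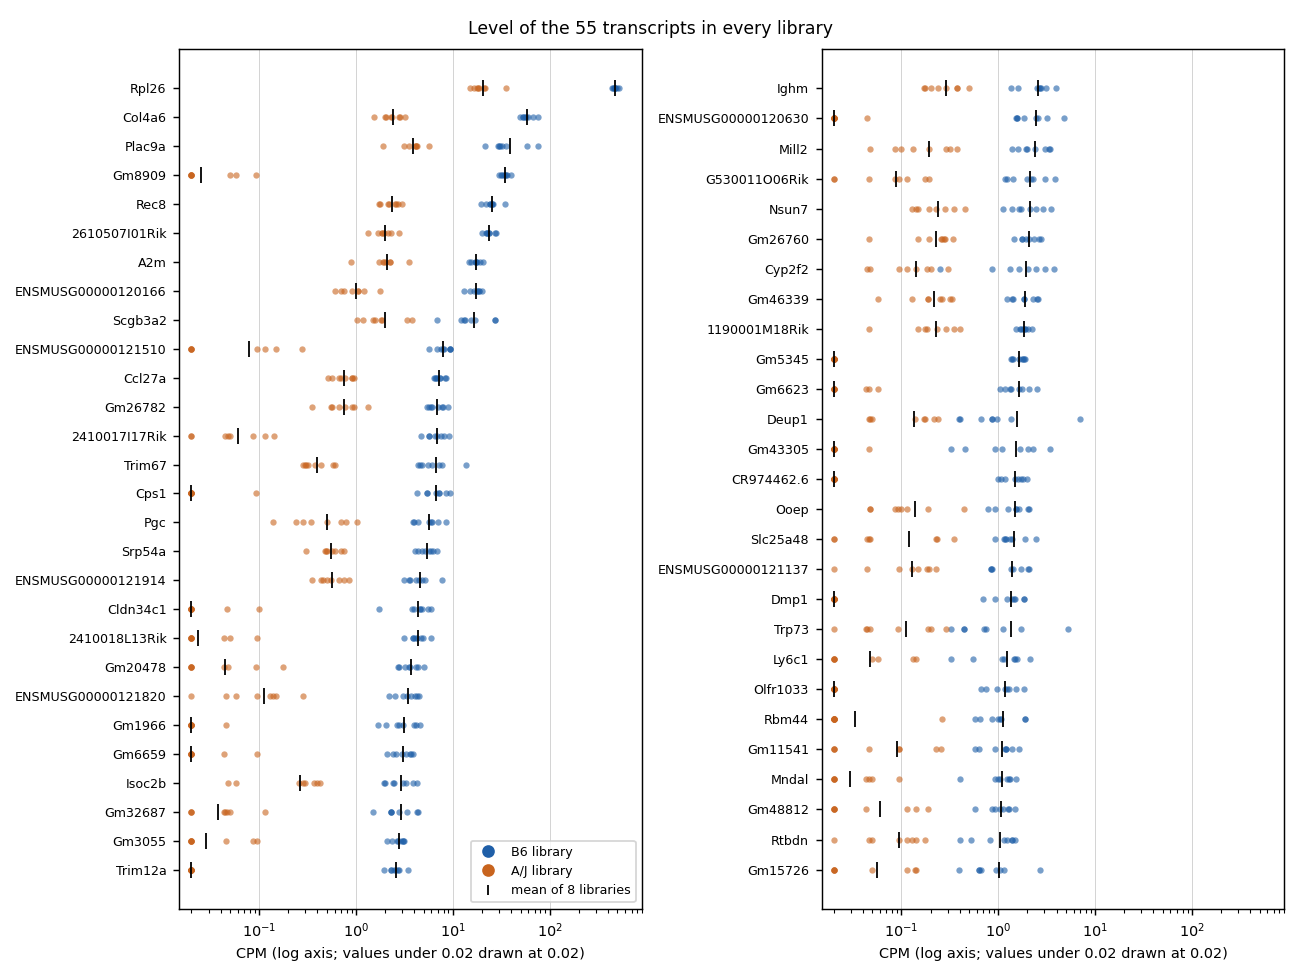
Level of each of the 55 transcripts in every library, on a log axis of CPM. Points are libraries, vertical ticks are means of 8 libraries, and values under 0.02 CPM are drawn at 0.02. B6 and A/J points overlap in 1 row, Cyp2f2.

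CPM is not divided by transcript length, so it serves to compare strains for a gene and not the abundance of different genes. Of the 55, 24 had a count in all 8 A/J libraries. Over the A/J group a count of 0 allows up to 3 counts, or 0.0178 CPM. This limit and the intervals of ratios below (95%, Clopper-Pearson) cover counting error alone, because the reads carry no molecular identifiers and are not independent molecules.

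The transcript with the most counts was Rpl26 (ENSMUSG00000060938, chromosome 11), which encodes a protein of the large ribosomal subunit. It ran from 444 to 523 CPM in B6 with a median of 467, and from 15.1 to 35.5 CPM in A/J with a median of 18.4. The strains were thus far apart, and within A/J the control replicate 3 was well above the rest.

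Near-identical copies in the genome bear directly on such counts, since in the gene counts of STAR a read that matches a copy as well as the gene is set aside as multimapping and a read closer to the copy is counted there. M21 transcripts of 49 of the 55 could be compared with all other transcripts, and for 15 a different gene matched at least 50% of the transcript with an identity of 90% or higher. For 14 of these a copy was measured in the files. In 4 pairs of a gene and its closest copy, the A/J level of both together was 40% or more of the B6 level. These pairs were singled out after their values were seen. The next stretches of 60 aligned bases show each pair at its least alike, as the gap-free stretch with the most mismatches. They lie in coding sequence, except that of Gm15772, a pseudogene aligned as a whole transcript. Each stretch is from the M21 transcripts, 5′ to 3′, with the bases that differ between the pair in capitals.
Rpl26: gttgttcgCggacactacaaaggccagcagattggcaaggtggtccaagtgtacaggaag
Gm15772: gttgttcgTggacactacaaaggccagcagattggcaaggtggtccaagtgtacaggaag
Trim12a: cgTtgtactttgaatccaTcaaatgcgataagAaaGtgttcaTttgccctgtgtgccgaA
Trim12c: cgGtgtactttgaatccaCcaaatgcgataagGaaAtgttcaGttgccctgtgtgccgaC
Gm32687: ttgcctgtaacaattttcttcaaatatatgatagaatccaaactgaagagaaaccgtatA
Zfp433: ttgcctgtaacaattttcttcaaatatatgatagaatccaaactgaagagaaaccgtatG
Gm3055: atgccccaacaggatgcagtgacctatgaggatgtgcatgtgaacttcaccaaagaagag
Zfp781: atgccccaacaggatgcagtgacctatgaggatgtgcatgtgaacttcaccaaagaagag

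Gm15772 is annotated as a processed pseudogene of the kind that copies a spliced messenger RNA, and its transcript was aligned with the coding sequence of Rpl26. There were 2 mismatches in 429 aligned bases and 6 bases in gaps. It went the other way from Rpl26. Its level was 8.47 to 10.4 CPM in B6 and 250.5 to 297 CPM in A/J, without overlap. Added to Rpl26, the pair stood at 481 CPM in B6 and 298 CPM in A/J, so that A/J held 62.0% of the B6 sum and not the 4.34% of Rpl26 alone. How the reads of the pair were divided between the copies in either strain was not tested.

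Trim12a (chromosome 7), of the tripartite motif family related to the antiviral TRIM5, had no count in any A/J library. In B6 it ran from 1.95 to 3.48 CPM with a median of 2.53. Against the limit of 3 counts over the A/J group, the pooled level was at least 143-fold higher in B6. Its copy Trim12c differed in 54 of 817 aligned coding bases, with 47 bases in gaps, and was higher in A/J, with 11.5 to 15.5 CPM against 6.97 to 9.96 CPM in B6. The pair together stood at 13.5 CPM in A/J, 120% of the 11.3 CPM in B6.

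The other pairs of this kind join a Gm gene on chromosome 10 with a zinc finger gene, and their coding sequences were nearly the same. Gm32687 differed from Zfp433 in 3 of 1800 aligned bases. It ran from 1.49 to 4.34 CPM in B6 (median 2.54) and from 0 to 0.114 CPM in A/J (median 0.0436), while Zfp433 stood at 2.31 ± 0.223 CPM in B6 and 2.52 ± 0.493 CPM in A/J (SD, n = 8 each). Gm3055 had 0 mismatches to Zfp781 in 729 aligned bases. It ran from 2.10 to 3.12 CPM in B6 (median 2.83) and from 0 to 0.0955 CPM in A/J (median 0), and Zfp781 stood at 1.69 ± 0.378 and 2.5 ± 0.491 CPM. The zinc finger copies were thus present in both strains at levels that overlapped, while the Gm genes were read almost only in B6. As sums the pairs held 49.3% and 57.0% of the B6 level in A/J.

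**Figure D2:**
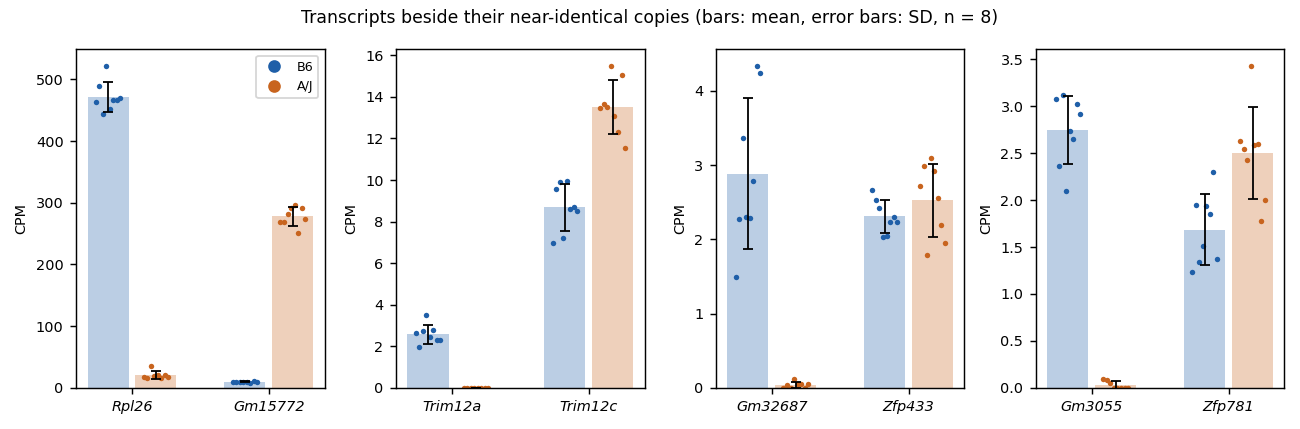
CPM of 4 of the transcripts beside their near-identical copies in B6 and A/J. Bars start at 0 and are means, error bars are SD (n = 8) and points are libraries. Rpl26 is high in B6 and low in A/J, and Gm15772 is the reverse (9.61 and 278 CPM).

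For the other 10 the sum of gene and closest copy in A/J was between 0.185% and 23.7% of the B6 sum. Among them were Ccl27a with Gm13306 (13.95%), 2410018L13Rik with 9030624G23Rik (11.4%), Mndal with its relative Ifi211 (10.5%) and Gm8909 with Gm10499 (0.323%). Ly6c1 and Ly6c2, genes of small membrane-anchored proteins, differed in 9 of 393 coding bases and summed to 5.23%.

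This depended on which copy was taken, since some genes had several. Sums with every copy in the files, formed after values were seen, rest largely on the copies and describe gene and copies together, not the gene. Srp54a, a subunit gene of the signal recognition particle, went from 10.2% with its closest copy Srp54b to 82.7% with its neighbour Srp54c, which stood at 15.3 CPM in B6 and 16.6 CPM in A/J. The processed pseudogenes Gm6659 and Gm6623 are copies of each other (0.763%), but both also match Akirin1, a gene of a nuclear protein, at 50.7 CPM in B6 and 55.6 CPM in A/J, and with it the sum was 100.5%. Gm5345 went from 23.7% with Gm12070 to 99.0% with all 45 copies, of which Gapdh, the glycolytic enzyme gene, held 1621 CPM in B6 and 1403 CPM in A/J. Gm3055 went to 91.8% with BC024063 added. With every copy added, the sums of Gm8909, Ccl27a, 2410018L13Rik, Gm1966, Ly6c1 and Mndal in A/J were 5.23% to 14.9% of those in B6. The copies of Plac9a found in M21, Gm9780 among them, were not analysed here. For all 15 the split of reads among copies makes the level of the gene itself uncertain. The other 34 compared had no copy that met these limits.

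Where transcripts lay close together, their neighbours were compared too. In the order of M21, 9 of the 55 lay within 500 kb of another of them, in 3 runs. The run on chromosome 17, in the region of the histocompatibility genes, held 2410017I17Rik, Gm6659, Gm8909, Gm20478 and Gm6623. Gm8909 was at 30.1 to 39.5 CPM in B6 with a median of 34.1, and its 8 A/J libraries held 4 counts in all, 0.0729% of the B6 level. 2410017I17Rik was at 4.72 to 9.06 CPM in B6 and at most 0.141 CPM in A/J. The only other tested gene inside the run, Gm17782, had 1.62% of its B6 level in A/J, and the tested genes that flank the run, Gm10499 (9.02%) and H2-T3 (11.8%), were low as well, the latter left out by its symbol and the former by its level of 0.982 CPM. The run thus extended past the transcripts that the choice took. The other runs were Gm3055 with Gm32687 on chromosome 10 and G530011O06Rik with Gm15726 on the X chromosome.

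Across all 49 placed transcripts, the nearest tested genes on either side that were not themselves among the 55 numbered 87. In 69 of them (79.3%) the A/J mean was 50% to 200% of the B6 mean, against 94.0% of all tested genes, and the median was 96.1%. In 4 of the 87 it was over 200%. In 14 of the 87 it was under 50%, where 3.40% of all tested genes were. Among the 14 were Gm17782, Gm10499 and H2-T3 at the chromosome 17 run and Mid1 and Gm15247 at the X chromosome run. Plac9a, a small gene named for placenta, had such a neighbour. It ran from 21.3 to 75.6 CPM in B6 (median 31.2) and from 1.89 to 5.68 CPM in A/J (median 4.09), and Tmem254a beside it averaged 82.9 and 20.9 CPM, 25.2%. Dmp1 lay beside Ibsp, another gene of mineralised matrix, which had 19.2% of its B6 level in A/J.

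Among structural proteins, Col4a6 encodes the alpha 6 chain of type IV collagen, the network collagen of basement membranes, and lies head to head with Col4a5 on the X chromosome. Col4a6 ran from 48.7 to 75.3 CPM in B6 (median 56.3) and from 1.55 to 3.20 CPM in A/J (median 2.33). The lowest B6 library was 15.2-fold above the highest A/J library. Col4a5 averaged 151 ± 24.4 CPM in B6 and 132 ± 8.48 CPM in A/J (SD, n = 8 each), and of the other chains Col4a1, Col4a2, Col4a3 and Col4a4 had means 1.28-fold to 1.52-fold higher in B6. The near absence in A/J was seen for alpha 6 and not for its neighbour or the remaining chains, which is a description of 6 genes and not a test.

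Dmp1, an acidic phosphoprotein of bone and dentin matrix, had no A/J count and ran from 0.704 to 1.84 CPM in B6 (at least 74.1-fold). Of the other matrix mineral genes looked at, Ibsp averaged 1.09 CPM in B6 and 0.209 in A/J, Spp1 averaged 2.21 and 2.55 CPM, and Mepe was at or near 0 in both. The whole list of 6 genes, Phex and Sparcl1 included, summed to 460 to 632 CPM in B6 libraries and to 373 to 468 CPM in A/J libraries. A2m, the protease inhibitor alpha-2-macroglobulin, ran from 14.8 to 20.5 CPM in B6 (median 17.2) and from 0.888 to 3.55 in A/J (median 1.99). Its relative Cd109 averaged 50.5 and 37.7 CPM, and Pzp, Mug1 and Mug2 were at 0.395 CPM or less in every library.

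Several of the 55 belong to germ cells or meiosis by their known role. Rec8, the meiotic kleisin subunit of cohesin that holds sister chromatids together, ran from 19.4 to 34.2 CPM in B6 (median 24.9) and from 1.74 to 2.98 CPM in A/J (median 2.35). Stag3, its meiotic cohesin partner, went the other way at 5.62 ± 0.767 CPM in B6 and 11.1 ± 1.35 CPM in A/J (SD, n = 8 each), and Smc1b was at 0.491 and 0.424 CPM. The synaptonemal complex gene Sycp1 was at 0.0177 CPM in B6 and 5.14 CPM in A/J. Dmc1, the meiotic recombinase, averaged 3.51 and 1.51 CPM and Tex11, at low levels, 0.276 and 0.0881 CPM, both with the higher mean in B6. Sycp2, Sycp3 and Rad21l were under 0.4 CPM on average in both strains. Ooep, of the subcortical maternal complex of the egg, ran from 0.792 to 2.06 CPM in B6, against 0.0470 to 0.440 in A/J. The complex members Nlrp5 and Khdc3 were at or near 0 in both strains and Tle6 was at 10.5 and 8.28 CPM. Rbm44, an RNA-binding protein of germ cells, had counts in 1 A/J library only (0.264 CPM there) and ran from 0.580 to 1.90 CPM in B6.

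Cps1 (chromosome 1) is the mitochondrial carbamoyl phosphate synthetase that starts the urea cycle in liver and intestine. It ran from 4.26 to 9.26 CPM in B6 with a median of 6.93, and a single A/J library held its 2 counts (0.0934 CPM there). The ratio of pooled levels was 569-fold, with a counting interval of 157 to 4704. Of the other urea cycle genes, Otc had no count in any library and Nags was at or below 0.131 CPM, while Ass1 (6.92 and 4.59 CPM), Asl (14.3 and 13.3) and the transporter Slc25a15 (35.1 and 35.01) were read in both strains. The other tested genes on either side of Cps1, Lancl1 and Erbb4, had 111% and 93.4% of their B6 level in A/J. The difference was thus seen at Cps1 alone among the cycle genes given here. All 5 liver markers also had the higher mean in B6, among them Alb (1.63 and 0.450 CPM) and Afp (2.61 and 1.76 CPM), and their sum ran from 1.34 to 12.4 CPM in B6 libraries and overlapped the 1.32 to 5.11 CPM of A/J libraries. Their part in the level of Cps1 was not tested.

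Several others have known roles in immunity, by which they are grouped here only for reading. Ccl27a, a chemokine that draws T cells to skin, ran from 6.34 to 8.54 CPM in B6, against 0.515 to 0.951 CPM in A/J. Ighm, the constant region of the IgM heavy chain, ran from 1.35 to 3.91 CPM and from 0.173 to 0.505 CPM, with Pax5 at or near 0 and Cd79a at 0.331 and 0.247 CPM. Of the 8 immunoglobulin and B cell genes looked at, Ighm included, 2 were at 1 CPM or more in B6. Together the 8 summed to 3.09 to 5.35 CPM in B6 libraries and to 0.916 to 2.07 CPM in A/J libraries. Cd79b, also of that list, was among the tested genes. Mill2, an MHC class I-like gene, averaged 2.39 and 0.192 CPM. Mndal, of the interferon-inducible Ifi200 family on chromosome 1, was at 0.398 to 1.52 CPM in B6 and at most 0.0955 CPM in A/J, whereas its neighbour Ifi204 was at 1.73 and 7.90 CPM and Ifi202b at 0.00518 and 1.33 CPM. Members of this family hence differed between the strains in both directions. In the Trim5, Trim12 and Trim30 cluster, Trim30d also had no A/J count (0.599 CPM in B6, under the level of the rule), Trim34b was at 0.00527 and 0.664 CPM, and Trim21 was at 4.27 and 4.39 CPM. Of the other genes of that list, Trim5 was at 0.340 and 0.0169 CPM, Trim34a at 1.39 and 0.421 CPM, Trim30a at 2.29 and 1.67 CPM, Trim6 at 1.09 and 1.20 CPM and Trim68 at 11.6 and 14.5041 CPM, with Trim30b and Trim30c under 0.2 CPM on average.

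The remaining transcripts with no A/J count were Gm5345 (1.37 to 1.90 CPM in B6, at least 91.5-fold), the long intergenic RNA CR974462.6 (0.985 to 1.97 CPM, at least 82.1-fold) and the olfactory receptor gene Olfr1033 (0.667 to 1.84 CPM, at least 66.5-fold). Another 7 had 1 to 3 counts over all 8 A/J libraries. Besides Cps1 these were Cldn34c1, Gm1966, Gm6659, Gm6623, Gm43305 and a transcript with an identifier only. Cldn34c1, a claudin-like gene on the X chromosome, was at 1.71 to 5.99 CPM in B6, a 251-fold pooled ratio with an interval of 85.6 to 1222, and none of the other 8 Cldn34 genes in the files passed 0.1 CPM in any library. A further 11 of the 55 had 4 to 10 counts over the A/J libraries, and 10 had over 100.

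The rest were Trim67 (4.39 to 13.8 CPM in B6, 0.286 to 0.611 in A/J), a brain-enriched tripartite motif gene, and 2610507I01Rik (20.05 to 28.2 and 1.33 to 2.77), Gm26782, Isoc2b, Nsun7, Gm26760, Gm46339, 1190001M18Rik, Slc25a48, Gm11541, Gm48812, Rtbdn, and the identifier-only transcripts, of which ENSMUSG00000120166 had most reads (13.1 to 19.8 and 0.611 to 1.77 CPM). In each of these the ranges of the strains were apart. For 4 of the 55 (2410017I17Rik, Gm20478, Gm15726 and Cyp2f2) the counts of both strand columns summed to more than 1.5 times the unstranded count in B6, as happens where genes on opposite strands overlap, so these levels are uncertain. In A/J the strand columns summed to 275 counts for Gm26782, against 128 unstranded, and to 205 for Ccl27a, against 127. The A/J levels of these genes, and with them their place under the ratio limit, are uncertain as well.

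The limits of the rule fell within a continuum. Just inside the ratio lay ENSMUSG00000121914 (12.4%), 1190001M18Rik (12.4%) and Scgb3a2 (12.2%), and just outside it Drc3 (12.53%), Kcnc1 (12.8%) and Dysf (12.8%), the last a muscle membrane repair gene at 35.01 and 4.49 CPM. Just inside the level lay Gm15726 (1.03 CPM), Rtbdn (1.05) and Gm48812 (1.07), and just outside it Best1 (0.990), Gm10499 (0.982) and a gene with an identifier only (0.926).

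The epithelial genes among the 55 were of 3 kinds. Scgb3a2 encodes a secretoglobin of airway secretory cells and Cyp2f2 a cytochrome P450 of club cells. Pgc encodes progastricsin, an aspartic protease of distal cells that processes surfactant protein B. Trp73 encodes the transcription factor p73, and Deup1 a protein that builds the deuterosome, on which ciliated cells multiply their centrioles. Scgb3a2 ran from 6.87 to 27.4 CPM in B6 (median 14.3) and from 1.03 to 3.78 in A/J (median 1.69). Pgc ran from 3.91 to 8.43 CPM (median 5.79) and from 0.140 to 1.01 (median 0.422). Both separated the strains, by a narrower margin for Scgb3a2, where the lowest B6 library was 1.82-fold above the highest A/J library.

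Cyp2f2 had a median of 1.84 CPM in B6 and 0.127 in A/J. Trp73 ran from 0.328 to 5.23 CPM in B6 (median 0.732) and from 0 to 0.286 in A/J (median 0.0698). Deup1 ran from 0.396 to 6.998 CPM in B6 (median 0.857) and from 0.0467 to 0.239 in A/J (median 0.155). Replicate 2 of the B6 BMS493 group was the highest library for all 3. Without it, the B6 mean of Deup1 was 0.787 in place of 1.56 CPM and that of Trp73 0.789 in place of 1.34 CPM, and neither would have been taken by the rule (A/J at 17.2% and 14.3%). Without it Scgb3a2 would have been at 13.4%, also past the threshold, and Cyp2f2 at 8.497%. Scgb3a2 left the set in 6 of the 16 checks that omit a library, and the transcripts nearest the ratio limit did so as well.

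Other genes of the same cells were compared from lists written after values were seen. Of those at 1 CPM in B6 and not among the 55, the B6 mean was the higher in 3 of 3 secretory, 7 of 8 distal, 7 of 8 multiciliated and 0 of 2 basal cell genes, against 48.6% of all genes at 1 CPM. Their median fold was 1.63, 1.79, 1.75 and 0.805, against 0.996 over all genes at 1 CPM. The ranges of the strains were apart for only 1 gene of each of the first 3 lists, Hp, Sftpc and Foxj1. Sftpc, the distal surfactant protein C gene, ran from 177 to 865 CPM in B6, against 54.0 to 109 CPM in A/J, and its highest library was again replicate 2 of the B6 BMS493 group. Foxj1, the ciliated cell regulator, ran from 2.28 to 15.9 and from 0.300 to 1.82 CPM, with 15.9 CPM in that same library and at most 6.44 CPM in the other B6 libraries, and the general epithelial genes Nkx2-1 and Epcam averaged 228 and 190 CPM, and 223 and 183 CPM. Foxa2 averaged 60.7 and 54.3 CPM, while Sox9, a distal tip regulator, averaged 85.4 CPM in B6 and 105.5 CPM in A/J. The mature club cell gene Scgb1a1 had 1 count in B6 and none in A/J. The part of cell numbers in the levels of these 5 transcripts was not tested.

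**Figure D3:**
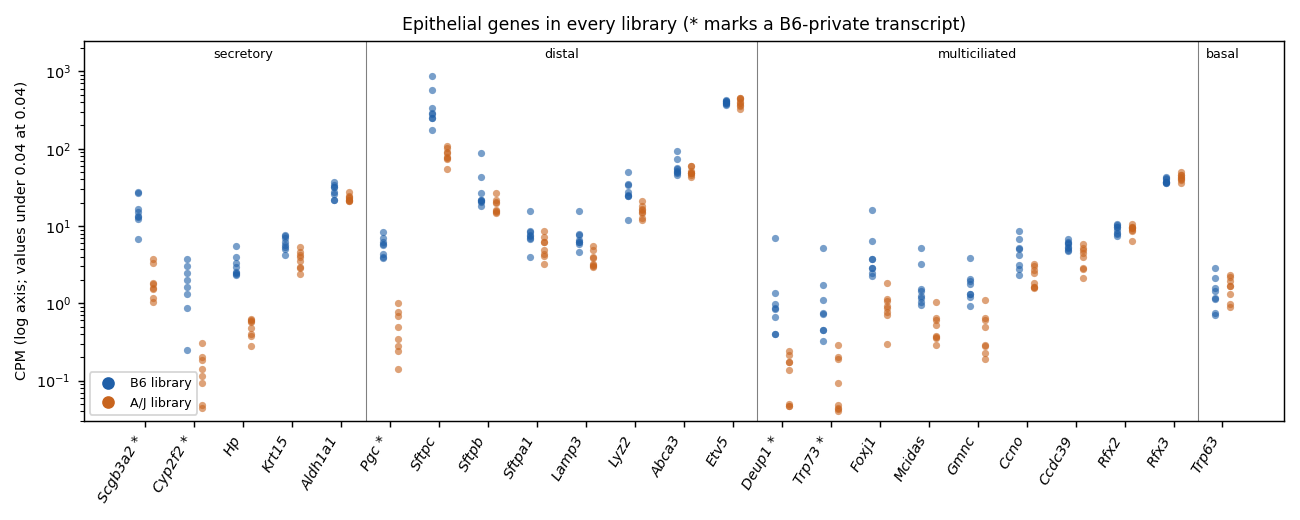
CPM (log axis, values under 0.04 drawn at 0.04) of epithelial genes in every B6 and A/J library, with an asterisk on 5 of the 55 transcripts. Most secretory, distal and multiciliated genes have a higher mean in B6 with points that overlap between strains, and the top B6 point of Deup1, at 6.998 CPM, is a single library.

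To show regulatory sequence for this set, the 250 bases upstream of the start of Pgc and Cyp2f2 are printed from RefSeq (GRCm38.p6, an older build than that of the files, so the positions do not apply to GRCm39). Pgc is at chr17:47726592-47726841 and Cyp2f2 at chr7:27119705-27119954, both on the plus strand. Capitals mark TATAAA searched on the sense strand, and CAAGTG (bound by NKX2-1) and AGGTCA (a core element of retinoid receptor sites) searched on both strands.
Pgc: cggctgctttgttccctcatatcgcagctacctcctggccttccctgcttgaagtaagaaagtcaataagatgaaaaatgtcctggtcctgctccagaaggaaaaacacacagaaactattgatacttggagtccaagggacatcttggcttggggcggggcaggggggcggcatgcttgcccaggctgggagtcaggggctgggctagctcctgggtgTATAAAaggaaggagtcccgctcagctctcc
Cyp2f2: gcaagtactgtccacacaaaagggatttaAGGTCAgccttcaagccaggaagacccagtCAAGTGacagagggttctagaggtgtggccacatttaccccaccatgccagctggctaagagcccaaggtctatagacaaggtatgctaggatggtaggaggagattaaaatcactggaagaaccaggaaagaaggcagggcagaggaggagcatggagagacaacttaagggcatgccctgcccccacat

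RefSeq gave 42 promoters for 34 of the 55. CAAGTG was in 9.52% of them against 11.6% of the 32851 promoters of the table, AGGTCA in 19.0% against 14.02%, and TATAAA in 11.9% against 7.59%. The motifs do not overlap each other in the stretches shown, and such matches describe letters only.

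The SD of log2(CPM + 0.1) over the 8 B6 libraries had a median of 0.407 over the 55 and of 0.155 over the genes at 1 CPM. The comparison was not matched for level, and 21 of the 55 had a B6 mean under 2 CPM, where counting error widens this SD. In 16 of the 55 the highest B6 library was at least 3-fold above the lowest. Replicate 2 of the B6 BMS493 group was the highest library for 16 of the 55 (29.1%), among them Deup1, Trp73, Cyp2f2, Plac9a and Trim67. The same count over all genes was not made. On the first principal component that library also lay highest, at 33.9 against 18.5 to 28.4 for the other B6 libraries. Rpl26, Gm8909, A2m and Ccl27a varied least.

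**Figure D4:**
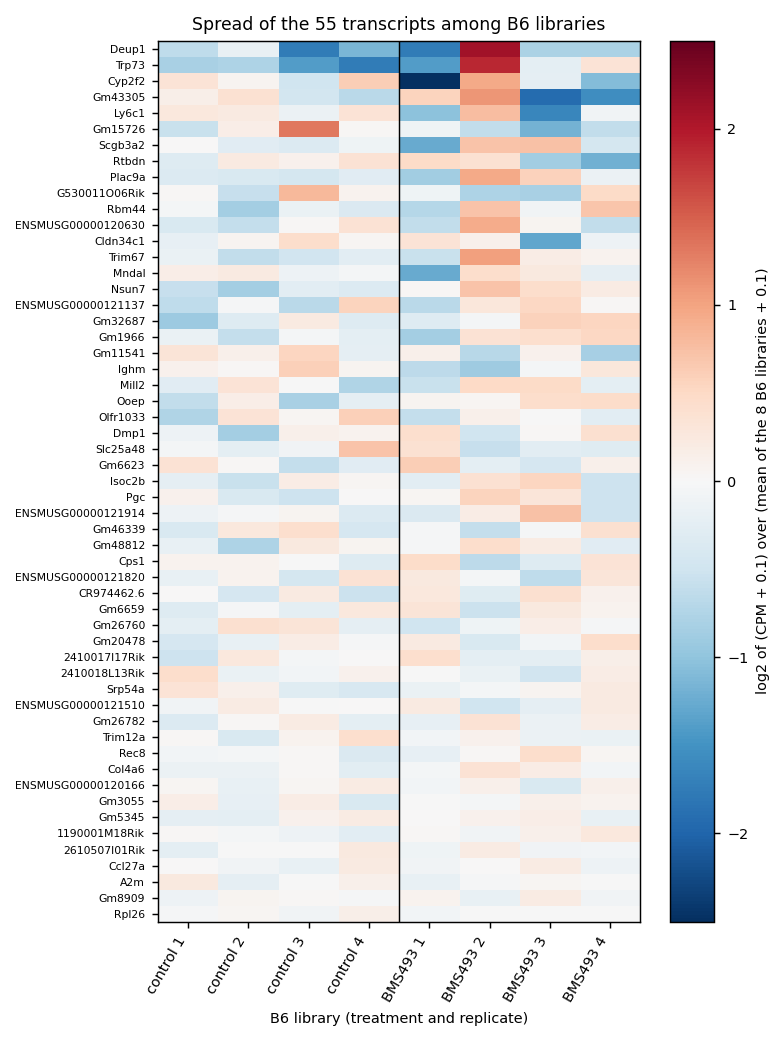
Difference of each of the 55 transcripts from its B6 mean in the 8 B6 libraries, as log2 of (CPM + 0.1) over (mean + 0.1), ordered by spread. Deup1 and Trp73 are highest in BMS493 replicate 2, and the transcripts at the bottom differ little between libraries.

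The design asks which genes differ between BMS493 and control lungs. In a quasi-likelihood model of edgeR fitted to all 17276 tested genes, with p-values adjusted by the Benjamini-Hochberg method, none of the 55 was called in B6 at an adjusted p under 0.05, where 0.423% of all tested genes were. All 55 had passed the filter on low counts. An unadjusted p under 0.05 was found for 7 of the 55 (12.7%), against 9.11% of all genes, and DESeq2, which called 0.92% of all genes, called none either. The log2 fold change of BMS493 over control was positive for 36 and negative for 19, with a median of 0.10 against 0.01 over all tested genes.

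The highest estimates in B6 were those of Trp73, Deup1 and Nsun7. Trp73 was at 0.718, 0.745, 0.446 and 0.328 CPM in the controls and at 0.448, 5.23, 1.12 and 1.72 CPM with BMS493. The groups overlapped, through BMS493 replicate 1. The log2 fold change was 1.92 (95% interval 0.66 to 3.19, edgeR adjusted p = 0.230), and without BMS493 replicate 2 it was 0.93 (adjusted p = 0.653). Without BMS493 replicate 1 it passed at 2.26 (edgeR adjusted p = 0.0277), in a fit that called 202 of all genes in place of 73. Deup1 was at 0.974, 1.37, 0.396 and 0.657 CPM in the controls and at 0.398, 6.998, 0.855 and 0.859 CPM with BMS493, so that a single library lay above the controls. Its log2 fold change of 1.45 (edgeR adjusted p = 0.528) was -0.30 without that library. Trp73, Deup1 and Nsun7 met the rule only with BMS493 replicate 2 included, so their estimates are not independent of the choice.

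Nsun7, of a family of RNA methyltransferases, was at 1.38, 1.12, 1.73 and 1.64 CPM in the controls and at 2.14, 3.499, 2.89 and 2.46 CPM with BMS493. Here all 4 treated libraries were above all controls, but the log2 fold change of 0.92 (95% interval 0.28 to 1.57) did not pass over all genes (edgeR adjusted p = 0.262). The lowest estimates were those of Gm15726 at -1.07, Gm11541 at -0.52 and Ighm at -0.49, with edgeR adjusted p of 0.515, 0.752 and 0.655. Gm15726 was at 2.72 CPM in control replicate 3 and at most 1.16 CPM in the other B6 libraries, and its log2 fold change was -0.53 without that replicate. On the first stranded column it was -0.09, and that of Ighm was -0.17. Ighm was at 2.77, 2.61, 3.91 and 2.69 CPM in the controls and at 1.59, 1.35, 2.499 and 3.15 CPM with BMS493, which overlap.

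**Figure D5:**
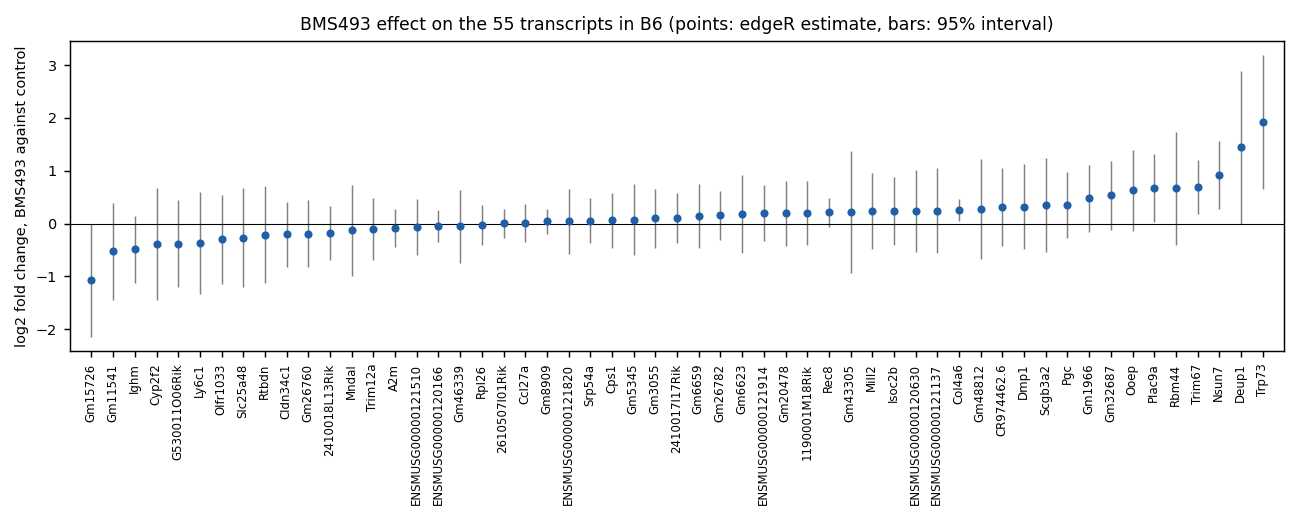
Log2 fold change of BMS493 over control in B6 for the 55 transcripts, ordered by size, with 95% intervals from edgeR that are not adjusted for the number of genes. Most points lie within 0.5 of 0, and Trp73 (1.92) and Deup1 (1.45) have wide intervals.

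For 6 of the 7 transcripts with the highest B6 counts the intervals were narrow. The log2 fold change in B6 was -0.04 for Rpl26 (interval -0.42 to 0.34), 0.04 for Gm8909 (-0.20 to 0.28), 0.21 for Rec8 (-0.07 to 0.49), 0.00 for 2610507I01Rik (-0.27 to 0.28), -0.08 for A2m (-0.44 to 0.28) and 0.26 for Col4a6 (0.04 to 0.47, edgeR adjusted p = 0.404). These 6 intervals leave room for changes of up to about 0.5 on the log2 scale. Plac9a, also among the 7, was at 30.6, 29.8, 28.9 and 31.8 CPM in the controls and at 21.3, 75.6, 58.3 and 35.3 CPM with BMS493, so that 3 treated libraries lay above the controls and replicate 1 below them. Its log2 fold change was 0.67 with a wider interval of 0.02 to 1.32 (edgeR adjusted p = 0.526), and it was among the calls made without BMS493 replicate 1. For the epithelial transcripts they were wider, at 0.35 for Scgb3a2 (-0.54 to 1.23), 0.35 for Pgc (-0.28 to 0.98) and -0.39 for Cyp2f2 (-1.44 to 0.67).

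In A/J the drug contrast says little about most of the 55, because they passed the filter on low counts through the B6 libraries where the choice made them high. With the filter applied to the A/J libraries alone, 13 of the 55 passed. Of the others, 5 had no A/J count and could not be called, and in all 23 had under 11 counts over the 8 libraries. No call was made among the 55 by edgeR, where 0.486% of all tested genes were called, or by DESeq2, which called 0.915% of all genes and gave no adjusted p for 8 of the 55. An unadjusted p under 0.05 was found for 8 (14.55%, against 6.23% of all genes). These shares cannot be compared, since 42 of the 55 did not pass the filter on A/J libraries alone. Several of the 8 rested on few A/J counts, such as 3 for Gm6659 and 3 for Gm6623. The lowest adjusted p was 0.391, that of Gm3055, which rested on 5 A/J counts, all in controls. The difference between the effects in A/J and B6 has the same limit, and the 5 without an A/J count could not be called in it. It was called for none of the 55, against 0.00579% of all tested genes, with an unadjusted p under 0.05 for 6 (10.9%, against 3.68%) and no call by DESeq2. For the same reason these unadjusted shares cannot be compared.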

How the data were processed

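Poly(A) RNA of 16 fetal mouse lungs was sequenced. The authors deposited raw gene counts, in 3 columns per library (without strand and for each strand) beside 4 lines that name no gene. Per the submitters' processing notes, FastQC, cutadapt and STAR were used with GRCm39. Versions and annotation are not given in the sources used here. The reads split about evenly between strands (51.0% to 52.0% on the first), so the column without strand was used. Counts that name no gene were left out of library sizes: 2.81% to 4.06% of reads were multimapping, 4.89% to 8.68% lay in no feature and 4.26% to 4.68% were ambiguous.

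Symbols, types, chromosomes, gene order and transcripts came from GENCODE M21, an older build than GRCm39, so no gene coordinates are given. It matched 51884 of 57180 identifiers. Copies were searched with BLAST 2.17.0 among M21 transcripts (a protein comparison had been planned). Coding sequences, and the whole transcript of Gm15772, were aligned with Biopython 1.88. Tables were made in Python 3.11.15 with pandas 2.3.3. The drug contrasts used edgeR 4.0.16 in R 4.3.3 on the deposited counts: filterByExpr, TMM scaling, 1 coefficient per group, robust quasi-likelihood tests (two-sided) with 12 residual degrees of freedom, tested on simulated data. DESeq2 1.42.0 was an alternative, with others given at the end.

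The members, lists and pairs were chosen with earlier results of these data known. By rule, the genes named were the 15 with the highest B6 mean, up to 5 without A/J counts, the 3 highest and 3 lowest drug effects in B6, the 3 nearest each threshold on either side, up to 8 with near-identical copies, members within 500 kb of another, and the urea cycle, Trim cluster and Cldn34 genes. Transcripts with an identifier only were left unnamed except 2, and some genes of the lists are not reported here. Others were named after their values were seen.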

Additional observations from a re-analysis of the deposited data

Results flagged for a closer look

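Within each group of 4 libraries, a library was marked when its gap to the nearest other library, divided by the range of the group, passed the 95% critical value of Dixon's test. Groups with a mean under 5 counts per library were not examined, a limit chosen after values were seen. This marked 7 of 145 groups (4.83%), and chance marks about 1 in 20.

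Deup1 in B6 with BMS493 had the widest relative gap in B6, 0.930, with replicate 2 at 6.998 CPM and the others at 0.398 to 0.859 CPM. In the same group, 2610507I01Rik had a gap of 0.907 (replicate 2 at 27.5 CPM, the others at 22.1 to 22.6) and Rpl26 a gap of 0.8291 at its low end (replicate 1 at 452 CPM, the others at 467 to 469.7 CPM).

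In B6 controls, Ighm had a gap of 0.877 (replicate 3 at 3.91 CPM, the others at 2.61 to 2.77) and Slc25a48, of the mitochondrial carrier family, a gap of 0.851 (replicate 4 at 2.43 CPM, the others at 1.20 to 1.38). In A/J, Rpl26 had a gap of 0.830 in controls (replicate 3 at 35.5 CPM, the others at 15.1 to 18.5) and Plac9a a gap of 0.933 with BMS493 (replicate 2 at 5.68 CPM, the others at 4.05 to 4.16).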

How the results depend on the processing

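The number of transcripts by the rule was 55. It moved to 110 with an A/J limit of 1/4, to 30 with 1/16, to 84 with a B6 minimum of 0.5 CPM and to 34 with 2 CPM. It was 51 to 58 when a library was left out, with 50 to 55 of the 55 kept, and lowest without B6 BMS493 replicate 2. Stranded columns gave 56 and 57 (45 and 48 shared), controls alone 55 (46 shared) and BMS493 libraries alone 60 (50 shared). Library numbers 1 to 8 and 9 to 16, alternatives added after seeing the data, gave 52 (48 shared) and 56 (49 shared).

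Calls for BMS493 in B6 were 0, and 0 to 3 when a library was left out. The 3, without BMS493 replicate 1, were Plac9a, Trim67 and Trp73, where calls over all genes rose from 73 to 202. With no filter on low counts, and 260 calls over all genes, 1 was called (Trp73, log2 fold change 1.93, adjusted p = 0.000802); over the alternatives its adjusted p reached 0.653. The cause was not tested. In A/J and for the difference between strains the alternatives also gave 0 (RLE scaling, DESeq2, both filters, a stranded column, left-out libraries), which says nothing of stability, since 42 of the 55 did not pass the filter on A/J libraries alone. The minimum of 1 CPM left 37 of the 55 to test, and the fit to A/J libraries alone, which took every gene of the shared filter with an A/J count, 50. The library set as a covariate, added after seeing the data, gave 0 in each contrast.

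Replicate numbers recur across groups, but they did not pair the libraries: deviations of same-numbered libraries correlated at -0.147 to 0.148, over 0.1 in 3 of 24 pairs, and 7 of 16 libraries correlated best with their own number. The replicate block gave 0 calls in each contrast.

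For many of the 55 counts were low in A/J, where 23 had under 11 over 8 libraries and 10 had over 100.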
